A study of Mus musculus with 8 samples.

Results

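The ErbB system was described in sorted Paneth cells through 10 genes, which are the receptors Egfr, Erbb2 and Erbb3, the ligands Areg, Ereg, Hbegf, Btc and Nrg1, and the restraints Errfi1 and Lrig1. They were chosen by name from the 53801 genes of the deposited count table, all 10 were found in it, and the rule that lists them uses no measured value, although the list was written with earlier results of these data known. RNA came from viable EpCAM+ Cd24+ cells of the small intestine of 8 mice, 4 of them β-cat GOF; Mll1+/- (the controls) and the other 4 β-cat GOF; Mll1-/- (the knockouts), with 300 cells sorted per sample, and was copied and amplified by the Smart-seq2 protocol. All 8 mice carried Lgr5-EGFP-IRES-CreERT2, and in both genotypes the same Cre deleted exon 3 of β-catenin, which stabilizes the protein. By design the genotypes therefore differed in Mll1 alone, as Mll1 flox/+ against Mll1 flox/flox. Sex went with genotype in part of the libraries, as given below. Mice of both sexes were induced at 4 to 6 weeks of age with tamoxifen, 1 mg per injection on 3 days in a row, and cells were taken 10 d later. The Cre acts in Lgr5+ stem cells and recombines a mosaic of crypts, and the sorting gate held no marker of recombination. The study examined Mll1 loss in the crypts by immunohistochemistry, which was not analysed here. The methods paragraph on the sorting names the Mll1 genotypes without β-cat GOF, whereas the labels and the results of the study give them with it.

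ErbB receptors are tyrosine kinases of the cell surface that act in pairs. Ligands such as amphiregulin, epiregulin, heparin-binding EGF and betacellulin are made as membrane-bound precursors, released by proteases of the Adam family, and bind Egfr, while neuregulins bind Erbb3 and Erbb4. Erbb2 has no known ligand of its own and Erbb3 has little kinase activity, so both signal mainly as partners. Active receptors feed the Ras-Erk and PI3-kinase pathways and are turned off by proteins such as Errfi1 (Mig6), which binds the kinase domain, and Lrig1, which promotes loss of the receptor and also marks crypt stem cells. In the crypt, EGF is a niche factor made by Paneth cells.

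The ErbB genes that differed most between the genotypes were the restraint Errfi1 and the ligands Btc and Areg, whose mean levels in the Mll1-/- cells were 2.02, 2.96 and 2.01 times those in the Mll1+/- cells by the fitted fold change, and the receptor Erbb3, at 0.697 times. None of them passed the test. Of the 10 genes, 8 passed the filter on low counts and 0 were called, that is, past an adjusted p of 0.05 and a size of 0.5 on the log2 scale (edgeR's quasi-likelihood test, p-values adjusted over the 13439 genes tested). Of all tested genes 0.186% were called, 0.156% with higher and 0.0298% with lower levels in the knockouts. DESeq2's Wald test called 1, Errfi1, with higher levels in the knockouts, as it did 0.744% of all tested genes (1.03% in either direction). With edgeR, a fit without a filter on low counts called Errfi1 and Btc, both with higher levels, as it did 0.597% of all genes. At an unadjusted p under 0.05 there were 2 members with higher levels in the knockouts, Errfi1 and Btc, and 1 with lower levels, Erbb3, against 4.35% and 2.53% of all tested genes in these directions and 6.88% in either. Errfi1 was the single tested member whose genotypes did not overlap, with every knockout above every control, which held for 2.59% of all tested genes, and a gap in either direction for 4.52%. The median log2 fold change of the 8 tested members was -0.01, or 0.12 without the library of knockout 3, and that of all tested genes 0.01.

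The unit of all levels is normalized CPM, which is CPM computed on library sizes that edgeR's TMM factors had adjusted. Totals on genes lay between 13037832 and 14380240 per library, and every control total was above every knockout total. A count of 3 corresponded to between 0.172 and 0.352 normalized CPM. Knockout 3 stood apart, with 19662 genes detected by at least 1 count where the other libraries had 22623 to 26074, and log2 fold changes that it moves by over 1.5 times are also given without it. The numbers in the labels, those of the animals included, fall into a lower and a higher run, called set 1 (controls 1 and 2, knockouts 1 and 2) and set 2 (the others) here. What the split stands for was not tested. In set 1 both controls had high Xist counts, 2697 and 1188, and both knockouts low ones, 3 and 6, while the summed counts of 4 Y-linked genes were 14 and 22 in these controls and 1243 and 1375 in these knockouts. Genotype and sex cannot be told apart within set 1. The labels give an animal number for each library, control 4 and knockout 4 carry the same one, and p-values measure the spread between these samples, part of which may be technical.

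The cells were checked against marker genes. All 10 Paneth markers passed the filter and none was called, and their summed level was 348000 to 654000 normalized CPM in the controls and 303000 to 964000 in the knockouts, with knockout 3 highest. Of the sort markers, Epcam had means of 282 ± 12.7 and 268 ± 39.8 normalized CPM and Cd24a means of 1200 ± 128 and 998 ± 205 (SD, n = 4 each). For Cd24a the log2 fold change was -0.26 (adjusted p = 0.916 from edgeR), or -0.41 without knockout 3 (adjusted p = 0.41). Stromal cells, in which Areg, Ereg and Nrg1 are also known to be made, were nearly unmarked, since none of 8 stromal markers passed the filter and none reached more than 10 counts in a library, with summed levels of 1.11 to 1.9 normalized CPM in the controls and 1.09 to 1.82 in the knockouts. The 7 enteroendocrine markers had summed levels of 187 to 470 normalized CPM in the controls and 45.3 to 175 in the knockouts, an unadjusted p under 0.05 was reached by 6 of the 7, all with lower levels in the knockouts, and none was called. The 7 stem cell markers summed to 712 to 1530 normalized CPM in the controls and 291 to 978 in the knockouts, a sum carried mostly by Olfm4, with means of 874 and 405. They did not go one way, since at an unadjusted p under 0.05 there were 3 with lower levels (Ascl2, Olfm4 and Slc12a2) and 2 with higher levels (Axin2 and Rnf43, also targets of Wnt signalling), with a median of -0.05 on the log2 scale. The 6 tuft cell markers summed to 166 to 494 normalized CPM in the controls and 98.4 to 324 in the knockouts, and 1 was lower at that level. So were 2 of 8 goblet markers (Fcgbp and Zg16) and 2 of the 4 tested enterocyte markers (Fabp2 and Vil1), and none of the tested immune and endothelial markers. The goblet markers did not go one way, with a median of 0.04 on the log2 scale. Their summed levels were 9260 to 17800 normalized CPM in the controls and 7870 to 18900 in the knockouts. Fcgbp and Zg16 were highest in control 3, at 266 and 303 normalized CPM. The part of the marker differences in the levels of the ErbB genes was not tested, and in such bulk samples fewer cells of a type and less RNA per cell cannot be told apart. The targeted gene Kmt2a, which encodes Mll1, had 45.1, 37.2, 24.1 and 22.4 normalized CPM in controls 1 to 4 and 31.1, 25.7, 38.5 and 28.4 in knockouts 1 to 4 (log2 fold change -0.06, adjusted p = 0.995 from edgeR, or -0.19 without knockout 3). Within set 1 the log2 fold change was -0.54 and within set 2, where both knockouts were above both controls, 0.52 (adjusted p of the difference 0.867, edgeR's interaction term). The count sums all exons and does not show whether the floxed exons were lost.

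**Figure D1:**
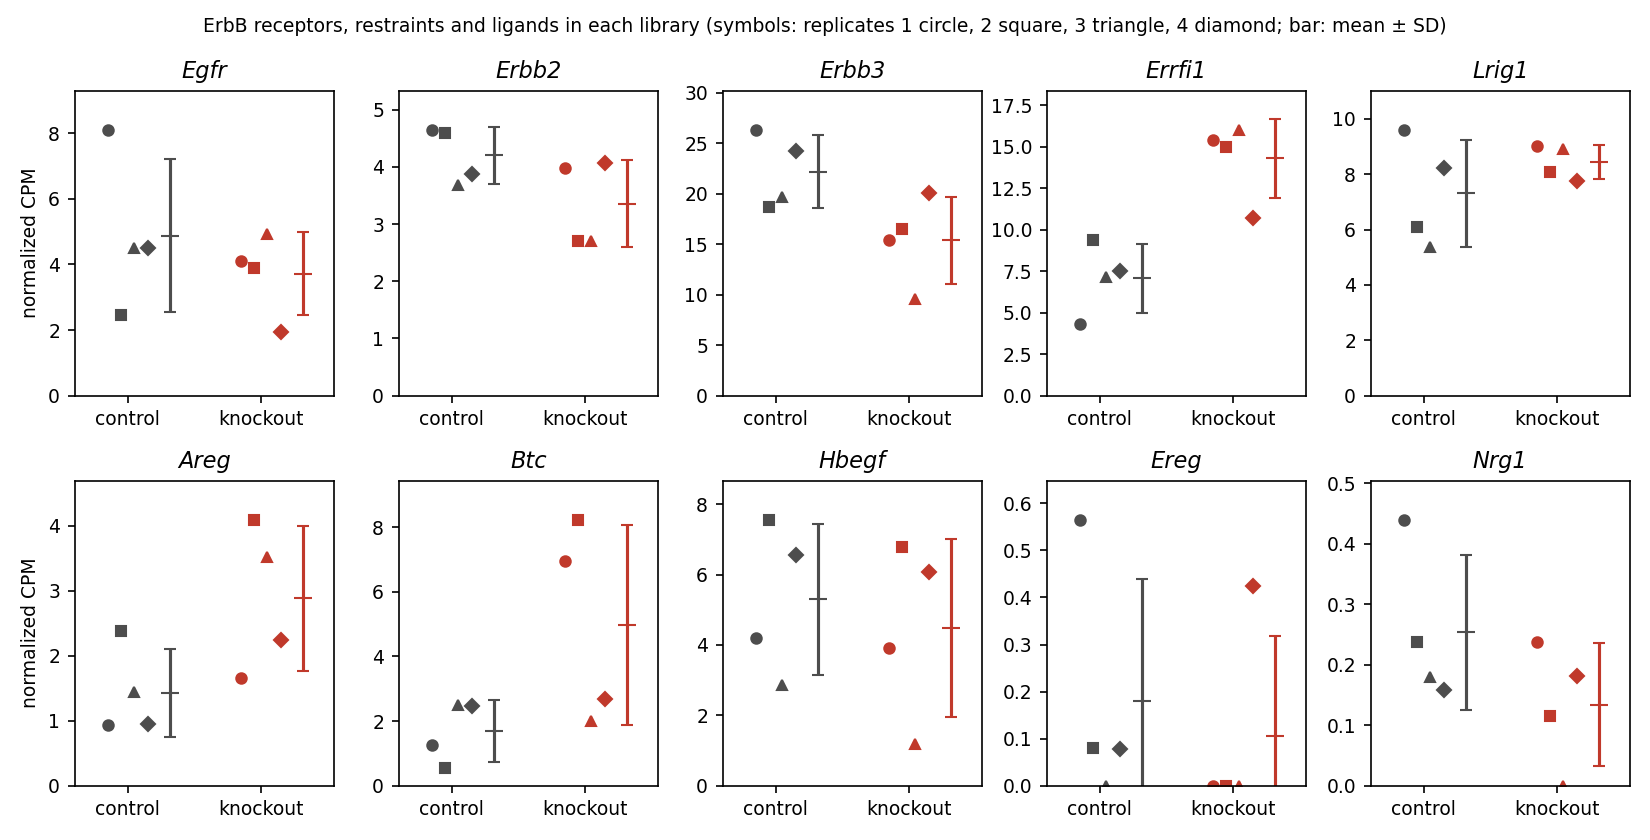
Normalized CPM (vertical axes, each from 0 and scaled to its gene) of the 10 ErbB genes in the 4 control and 4 knockout libraries, with 1 symbol per library (replicate 1 circle, 2 square, 3 triangle, 4 diamond) and a bar for the mean ± SD. In Errfi1 the knockouts, 10.7 to 16.0, all lie above the controls, 4.32 to 9.36, and in the other 9 genes the genotypes overlap.

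The receptors were detected in every library and differed in level. Erbb3 (ENSMUSG00000018166, chromosome 10 from 128567523 to 128589652 of mm10) had 26.3, 18.7, 19.7 and 24.2 normalized CPM in controls 1 to 4 and 15.4, 16.5, 9.63 and 20.1 in knockouts 1 to 4. Knockout 4 lay within the range of the controls and the other knockouts below it, and knockout 3 was lowest. The means were 22.2 ± 3.60 and 15.4 ± 4.33 (SD, n = 4 each). The fitted log2 fold change was -0.52 (SE 0.23, adjusted p = 0.698 from edgeR). Without knockout 3 it was -0.36 and its unadjusted p was no longer under 0.05. Within the sets it was -0.50 and -0.55.

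Egfr (ENSMUSG00000020122, chromosome 11 from 16752203 to 16918158), the receptor of the EGF-type ligands, had 8.09, 2.46, 4.49 and 4.50 normalized CPM in controls 1 to 4 and 4.10, 3.90, 4.93 and 1.94 in knockouts 1 to 4. Control 1 was highest, knockout 4 lowest, and the genotypes overlapped over most of their range. The log2 fold change was -0.41 with a 95% interval of -1.30 to 0.48 (adjusted p = 0.943 from edgeR). It was -0.04 without control 1 and -0.19 without knockout 4, so that its size rests on single libraries. Erbb2 (ENSMUSG00000062312, chromosome 11 from 98412470 to 98437716), the shared partner receptor, had 4.64, 4.6, 3.68 and 3.87 normalized CPM in the controls and 3.98, 2.70, 2.70 and 4.06 in the knockouts. Knockouts 2 and 3 were below every control and the other 2 were within the controls' range. Its log2 fold change was -0.32 with a 95% interval of -0.96 to 0.33 (adjusted p = 0.929 from edgeR), and -0.42 to -0.22 with each library left out. The 3 receptors all had negative fold changes, that of Egfr near 0 without control 1, and none passed after adjustment. Erbb4, the fourth receptor and no member, had 5, 6, 4 and 5 counts in the controls and 3, 4, 1 and 3 in the knockouts and was under the filter (adjusted p = 0.719 in the unfiltered fit of edgeR).

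Errfi1 (ENSMUSG00000028967, chromosome 4 from 150853919 to 150868892), an inhibitor of active ErbB kinases whose own transcript is induced by Erk signalling, had 4.32, 9.36, 7.18 and 7.50 normalized CPM in controls 1 to 4. The 4 knockouts had 15.4, 15.0, 16.0 and 10.7. Knockout 4 was the lowest of its group and still above control 2, the highest control. The means were 7.09 ± 2.08 and 14.3 ± 2.40 (SD, n = 4 each). The fitted log2 fold change was 1.01 (SE 0.26, adjusted p = 0.316 from edgeR). An exact two-sided permutation test over the 8 libraries gave p = 0.0286, the smallest it can give, which follows from the lack of overlap and adds nothing to it. With DESeq2's Wald test the adjusted p was 0.0444, where 1.03% of all tested genes were called, and with edgeR without a filter 0.0439, where 0.783% were called. The unfiltered call held without knockout 3 (adjusted p = 0.00858, where 1.53% of all genes were called) or knockout 4 (0.0297) and was lost without any of the other 6 libraries (edgeR, adjusted p between 0.0545 and 0.377). The log2 fold change lay between 0.83 and 1.17 with each library left out, was 1.16 within set 1 and 0.86 within set 2, and 0.89 with the Y-linked level as a covariate.

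Lrig1 (ENSMUSG00000030029, chromosome 6 from 94604529 to 94700158), the membrane-bound restraint, had 9.59, 6.11, 5.38 and 8.21 normalized CPM in the controls and 9.03, 8.10, 8.93 and 7.76 in the knockouts. The 4 knockouts lay close together and within the range of the controls. The log2 fold change was 0.20 with a 95% interval of -0.34 to 0.74 (adjusted p = 0.96 from edgeR). It was 0.36 without control 1 and 0.08 without control 3, and 2.6% of its exon bases also belong to Slc25a26. Errfi1 and Lrig1 therefore had fold changes of the same sign, and the difference between them was not tested.

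**Figure D2:**
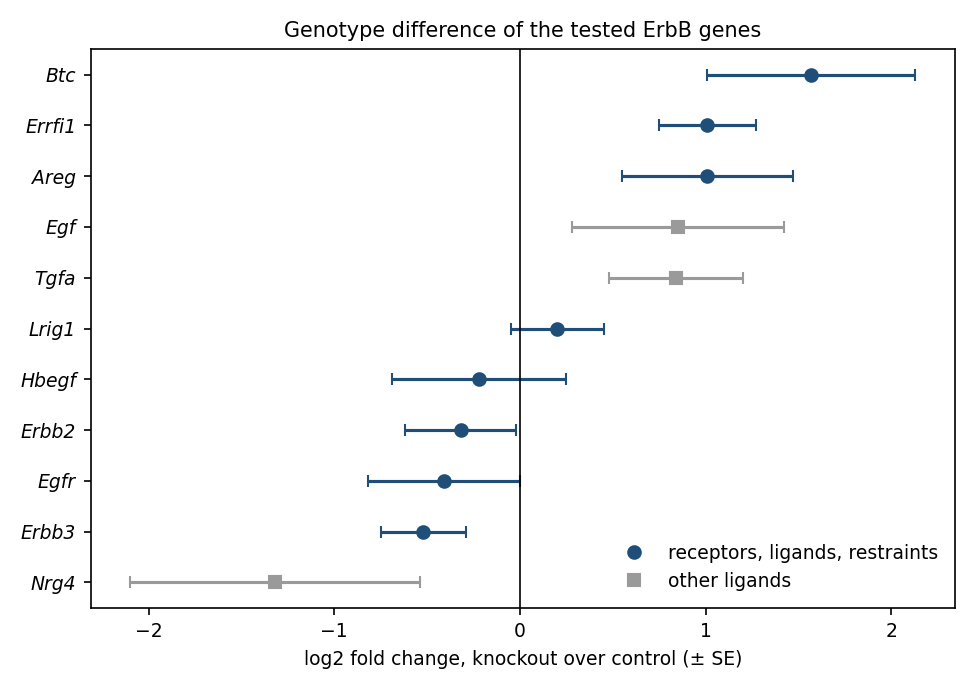
Log2 fold change of knockouts over controls (horizontal axis, bars ± SE) for the 8 tested ErbB genes (circles) and the 3 other tested ligands (squares), in order of size. Btc, Errfi1 and Areg lie at 1.57, 1.01 and 1.01, the 3 receptors between -0.52 and -0.32, and none had an adjusted p under 0.316.

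The ligands had fold changes of both signs, and none was called. Areg, Ereg and Btc lie with epigen (Epgn) within 376 kb of chromosome 5, together with 3 other annotated genes, and 2 of these 7 genes, Areg and Btc, had enough counts to be tested. Areg (ENSMUSG00000029378, chromosome 5 from 91139599 to 91148432) encodes amphiregulin, an Egfr ligand of tissue repair. It had 0.940, 2.38, 1.44 and 0.947 normalized CPM in controls 1 to 4 and 1.66, 4.08, 3.52 and 2.24 in knockouts 1 to 4. Control 2 exceeded knockouts 1 and 4, and the other 3 controls were below every knockout. These values rest on 12 to 30 counts per control and 28 to 71 per knockout. The means were 1.43 ± 0.677 and 2.88 ± 1.12 (SD, n = 4 each). The fitted log2 fold change was 1.01 (SE 0.46, adjusted p = 0.728 from edgeR), and the exact two-sided permutation p was 0.0857. The log2 fold change was 0.80 within set 1 and 1.26 within set 2.

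Btc (ENSMUSG00000082361, chromosome 5 from 91357261 to 91402994) encodes betacellulin, which binds Egfr and Erbb4. It had 1.25, 0.555, 2.51 and 2.45 normalized CPM in controls 1 to 4 and 6.95, 8.21, 2.00 and 2.67 in knockouts 1 to 4. Only knockouts 1 and 2 stood well above the controls. Knockout 3 was below controls 3 and 4, and knockout 4 was slightly above them. The log2 fold change was 1.57 (SE 0.56, adjusted p = 0.557 from edgeR). Within set 1 it was 3.03 (adjusted p = 0.142 from edgeR) and within set 2 it was -0.08 (adjusted p = 0.986). The difference between the sets, chosen for a test after the values had been seen, was -3.11 on the log2 scale, set 2 minus set 1 (edgeR's interaction term, adjusted p = 0.867). In set 1 the sex markers go with genotype, as given above, and with the Y-linked level as a covariate the log2 fold change of Btc was 1.07 (adjusted p = 0.931 from edgeR). Without a filter on low counts its adjusted p was 0.0445 (edgeR), and with each library left out from that fit it passed only without knockout 3 (0.000181) or knockout 4 (0.0195).

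**Figure D3:**
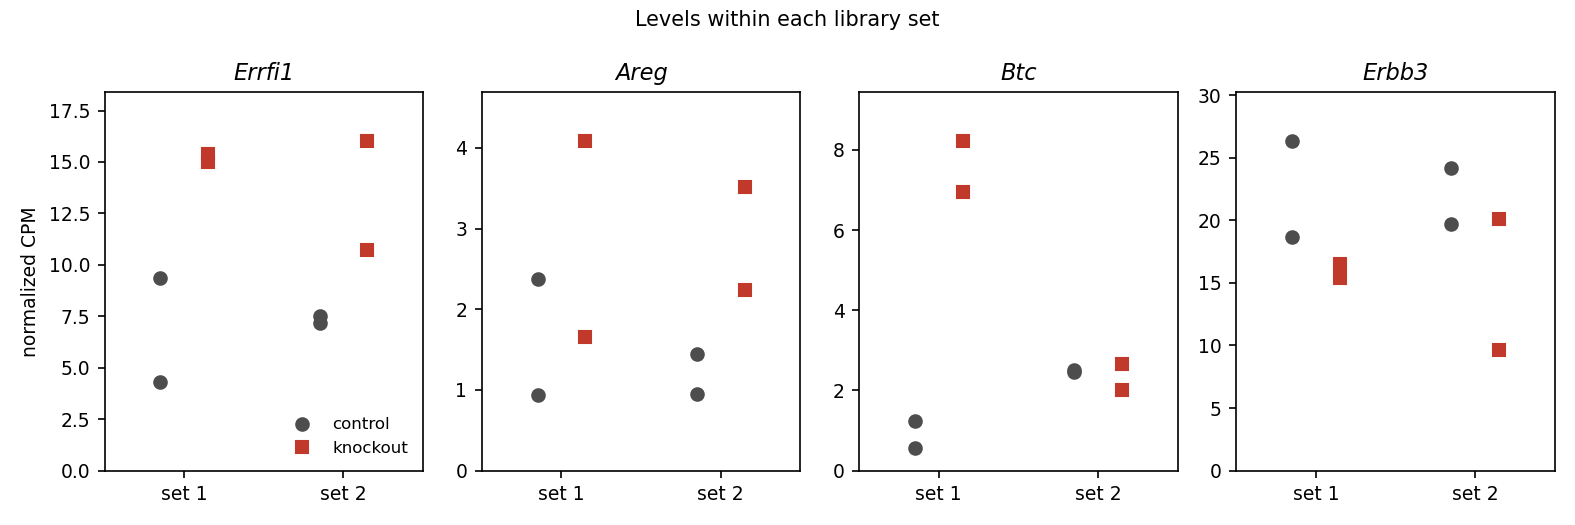
Normalized CPM (vertical axes, each from 0) of Errfi1, Areg, Btc and Erbb3 in controls (circles) and knockouts (squares) of library set 1 and set 2, with 1 point per library and 2 per group and set. In Errfi1 the knockouts lie above the controls in both sets, and in Btc they do so in set 1, at 6.95 and 8.21 against 0.555 and 1.25, and overlap the controls in set 2.

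The start regions of Errfi1, Areg and Btc are shown because these 3 members had the largest fold changes of the 8 tested. Of 56 genes compared, Errfi1 was also the one whose levels over the libraries were most like those of Areg. This likeness was picked as the highest and has no test. Windows from 250 bases before to 50 bases after a RefSeq start site were used here for 6 of the 10 members, in 7 windows of GRCm38.p6. Each is printed 5′ to 3′ on the strand of the gene, with the letters of the cAMP response element, TGACGTCA, in capitals where they occur.
Errfi1, chr4:150854820-150855119, plus strand: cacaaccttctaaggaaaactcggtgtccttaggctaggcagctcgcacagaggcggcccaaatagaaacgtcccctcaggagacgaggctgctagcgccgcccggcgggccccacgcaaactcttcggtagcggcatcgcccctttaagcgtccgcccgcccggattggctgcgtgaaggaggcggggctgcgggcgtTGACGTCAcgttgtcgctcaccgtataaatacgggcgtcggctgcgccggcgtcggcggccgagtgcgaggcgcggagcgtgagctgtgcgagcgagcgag
Areg, chr5:91139349-91139648, plus strand: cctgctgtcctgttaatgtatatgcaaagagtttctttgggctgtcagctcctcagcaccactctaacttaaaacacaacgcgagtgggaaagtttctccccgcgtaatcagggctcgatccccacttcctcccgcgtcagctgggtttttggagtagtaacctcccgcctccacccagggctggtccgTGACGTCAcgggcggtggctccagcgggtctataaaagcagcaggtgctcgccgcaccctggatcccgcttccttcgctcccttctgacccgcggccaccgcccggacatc
Btc, chr5:91402945-91403244, minus strand: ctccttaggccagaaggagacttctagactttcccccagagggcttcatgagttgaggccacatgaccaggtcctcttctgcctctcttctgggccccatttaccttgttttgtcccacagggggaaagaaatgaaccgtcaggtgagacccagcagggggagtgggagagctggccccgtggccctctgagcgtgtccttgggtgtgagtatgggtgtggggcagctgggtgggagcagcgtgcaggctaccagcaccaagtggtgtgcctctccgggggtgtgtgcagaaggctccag

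The letters TGACGTCA, which read the same on both strands, begin 61 bases before the start site in Areg and 51 bases before it in this window of Errfi1, and 1.79% of 32851 RefSeq promoter windows of the same length hold them. A second RefSeq window of Errfi1, chr4:150853546-150853845, does not hold them, nor do those of Btc, Lrig1, Egfr and Erbb2. The AP-1 letters TGANTCA and the Tcf/Lef letters CTTTGAT, searched on both strands, were in none of the 7 windows, and in 7.81% and 3.73% of all windows. The Ets letters CCGGAA were in the window of Egfr alone, on the minus strand 119 bases before the start site, and in 14.9% of all windows. No match to TGACGTCA is also a match to TGANTCA, and a match describes letters and not a bound site.

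Hbegf (ENSMUSG00000024486, chromosome 18 from 36504929 to 36515805), the heparin-binding ligand of Egfr and Erbb4, had 4.20, 7.54, 2.87 and 6.55 normalized CPM in controls 1 to 4 and 3.92, 6.78, 1.17 and 6.07 in knockouts 1 to 4. Knockout 3 was below every control and the other 3 knockouts were within the controls' range. The log2 fold change was -0.22 with a 95% interval of -1.26 to 0.82 (adjusted p = 0.985 from edgeR), and 0.08 without knockout 3. Epiregulin (Ereg, ENSMUSG00000029377, chromosome 5 from 91074622 to 91093646) had 9, 1, 0 and 1 counts in the controls and 0, 0, 0 and 7 in the knockouts. Its counts came almost wholly from control 1 and knockout 4. Neuregulin 1 (Nrg1, ENSMUSG00000062991, chromosome 8 from 31814551 to 32884029), a ligand of Erbb3 and Erbb4, had 7, 3, 2 and 2 counts in the controls and 4, 2, 0 and 3 in the knockouts. Ereg and Nrg1 were under the filter and not tested with the others, and in the unfiltered fit of edgeR their adjusted p was 0.89 and 0.851. At these counts no difference between the genotypes was detected in either, and the lack of one is not shown. A count of 0 allows up to 0.352 normalized CPM in knockout 3 and up to 0.172 in knockout 2, from counting error alone, since PCR copies were not told apart. In Ereg 3.4% and in Nrg1 4.7% of the exon bases also belong to another gene.

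The levels of the members were set side by side per kilobase of exon. In the controls the order of mean normalized CPM per kilobase was Erbb3 (3.69), Hbegf (2.23), Errfi1 (1.98), Lrig1 (1.31), Areg (1.17), Erbb2 (0.806), Egfr (0.431), Btc (0.374), Ereg (0.0437) and Nrg1 (0.0245). Each pair of neighbours in that order overlapped between libraries, and Erbb3 at 3.11 to 4.37 and Hbegf at 1.21 to 3.18 overlapped barely. In the knockouts Errfi1 had the highest mean level per kilobase, 3.99 with a range of 3.00 to 4.46, followed by Erbb3 at 2.56 with a range of 1.6 to 3.34 and Areg at 2.37 with a range of 1.37 to 3.36. Errfi1 overlapped both Hbegf and Lrig1 in the controls and neither of them in the knockouts. Egfr was the lowest of the 3 receptors per kilobase in both genotypes, at 0.431 in the controls and 0.328 in the knockouts. Over all 8 libraries the mean level of Erbb3 per kilobase was above that of 70.4% of the tested genes, that of Errfi1 above 69.3%, that of Areg above 55.2% and that of Egfr above 13.8%.

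**Figure D4:**
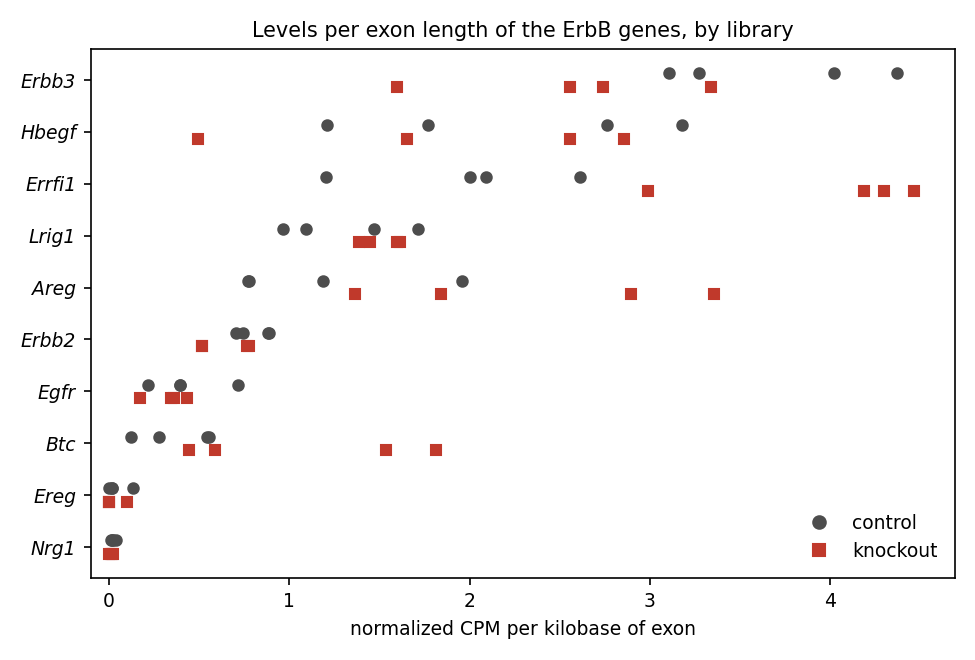
Normalized CPM per kilobase of exon (horizontal axis) of the 10 ErbB genes, in the order of their mean in the controls, with 1 point per library (controls circles, knockouts squares). Erbb3 leads in the controls at 3.11 to 4.37 and Errfi1 in the knockouts at 3.00 to 4.46, and Ereg and Nrg1 lie at or near 0 in every library.

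Of the ligands that are no members, transforming growth factor α (Tgfa) had 5.58, 4.13, 3.68 and 2.92 normalized CPM in the controls and 12.4, 6.43, 3.99 and 6.37 in the knockouts. Knockout 3 was within the controls' range and the other 3 knockouts were above it (log2 fold change 0.84, SE 0.36, adjusted p = 0.68 from edgeR), and without knockout 1 the log2 fold change was 0.47. Egf, the Paneth cell ligand, had 2.78 to 6.64 normalized CPM in the controls and 3.33, 3.73, 21.3 and 4.91 in knockouts 1 to 4. Its log2 fold change was 0.85 with knockout 3 and -0.18 without it (edgeR, adjusted p = 0.883 and 0.884), so that its direction rests on that library. Nrg4, an Erbb4 ligand, had 3 to 36 counts in the controls and 1 to 16 in the knockouts (log2 fold change -1.32, adjusted p = 0.848 from edgeR). This was -1.94 to -0.82 with each library left out, -2.22 within set 1 and -0.03 within set 2. Epgn had 1, 0, 1 and 0 counts in controls 1 to 4 and 1, 8, 0 and 16 in knockouts 1 to 4, Nrg2 at most 3 counts and Nrg3 at most 2. These were under the filter, and in the unfiltered fit of edgeR Epgn had an unadjusted p under 0.05 (adjusted p = 0.489) and Nrg2 and Nrg3 did not (0.861 and 0.877).

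The wider pathway was read from a list of 56 genes, of which 49 were tested. With edgeR's test 0 of the 49 were called, against 0.186% of all tested genes, and at an unadjusted p under 0.05 there were 6 with higher levels in the knockouts and 0 with lower levels, against 4.35% and 2.53% of all tested genes. DESeq2's Wald test called 1, Spred1, where it called 1.03% of all genes, and 7 had an unadjusted p under 0.05 with higher levels, against 4.91% of all genes. The unfiltered fit of edgeR also called Spred1 alone (adjusted p = 0.00397), where it called 0.783% of all genes. The median log2 fold change was 0.08. Without knockout 3 the calls were Spred1 and Phlda1 (edgeR, adjusted p = 0.0239 each), where 1.08% of all tested genes were called, and 5 genes were higher at an unadjusted p under 0.05, against 6.48% of all tested genes.

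The transcripts that follow Erk activity held 3 of these 6 genes, and 11 of their 13 tested members had a positive fold change, with a median of 0.61 on the log2 scale, where 50.9% of all tested genes were positive. Within set 1 the count was 11 of 13 with a median of 0.67, and within set 2 it was 8 of 13 with a median of 0.11, against 49.2% and 51.0% of all tested genes. Spred1, an inhibitor of Ras signalling, had 1.94, 2.06, 2.69 and 2.68 normalized CPM in controls 1 to 4 and 11, 9.02, 4.82 and 4.37 in knockouts 1 to 4. Every knockout was above every control, as for 2.59% of all tested genes. The log2 fold change was 1.65 (SE 0.36, adjusted p = 0.161 from edgeR), and DESeq2's adjusted p was 0.00407. Phlda1, a pleckstrin-homology protein, had 42.5 to 46.6 normalized CPM in the controls and 79.1, 98.9, 39.4 and 64.8 in the knockouts. Knockout 3 was below every control (log2 fold change 0.67, SE 0.24, adjusted p = 0.564 from edgeR), and 33.0% of its exon bases also belong to another gene. Etv5, an Ets factor, had 0.940, 0.793, 2.96 and 0.789 normalized CPM in the controls and 3.5, 6.66, 1.76 and 1.76 in the knockouts. Knockouts 3 and 4 were below control 3 (log2 fold change 1.34, SE 0.59, adjusted p = 0.686 from edgeR), and the log2 fold change was 2.54 within set 1 and -0.08 within set 2, and 0.79 to 2.02 with each library left out, lowest without knockout 2. Spred1 was also larger within set 1, at 2.32 against 0.77 on the log2 scale, and Phlda1 at 0.95 against 0.28. With the Y-linked level as a covariate 1 of the 13 transcripts and 2 of the 49 genes of the list were higher at an unadjusted p under 0.05, against 3.51% of all tested genes. Egr1, the most abundant of the group in both genotypes, had 64.4 to 137 normalized CPM in the controls and 122, 113, 264 and 126 in the knockouts (log2 fold change 0.66, adjusted p = 0.729 from edgeR, and 0.28 on the log2 scale without knockout 3).

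Among the proteases and trafficking proteins of the ligands, 1 of 5 had an unadjusted p under 0.05, against 6.88% of all tested genes in either direction. Adam10, a sheddase of ErbB ligands, had 23.4, 17.3, 25.8 and 16.8 normalized CPM in the controls and 41.5, 44.7, 16.8 and 29.1 in the knockouts. Knockout 3 was level with the lowest control and the other 3 knockouts were above every control (log2 fold change 0.67, SE 0.29, adjusted p = 0.671 from edgeR). It was 1.08 within set 1 and 0.12 within set 2. Of the 14 adaptors and proximal effectors 1 passed that level, the docking protein Gab1, with 2.29 to 4.68 normalized CPM in the controls and 5.70, 5.05, 12.5 and 4.73 in knockouts 1 to 4. Its groups did not overlap, as was so for 4.52% of all tested genes in either direction. The log2 fold change was 1.05 (SE 0.39, adjusted p = 0.589 from edgeR), and 0.63 without knockout 3. Within the sets it went the other way from Adam10, at 0.33 in set 1 and 1.85 in set 2, and the difference was not past adjustment in either gene. Pik3r1, the adaptor with the highest mean level over the 8 libraries, was at 26.9 ± 8.46 and 19.1 ± 4.4 normalized CPM (SD, n = 4 each), or -0.49 on the log2 scale (adjusted p = 0.798 from edgeR), and -0.66 to -0.29 with each library left out. Of the 14 tested restraints of receptor signalling and turnover, 0 had an unadjusted p under 0.05 in edgeR's test or DESeq2's. Their median was -0.15 on the log2 scale. A negative fold change was found in 11 of them, where 50.9% of all tested genes had a positive one. Without knockout 3 the negative ones were 6 of 14 and the median was 0.04. Usp8, with the highest mean level of them over the 8 libraries, had 12.4 to 19.3 normalized CPM in the controls and 16.6 to 29.2 in the knockouts (log2 fold change 0.36, adjusted p = 0.87 from edgeR). Knockout 3 was its highest library, and without it the log2 fold change was 0.14. The fifteenth restraint, Hgs, is annotated under a second identifier on the same strand, which shares 97.2% of its exon bases, and was listed at 0.

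**Figure D5:**
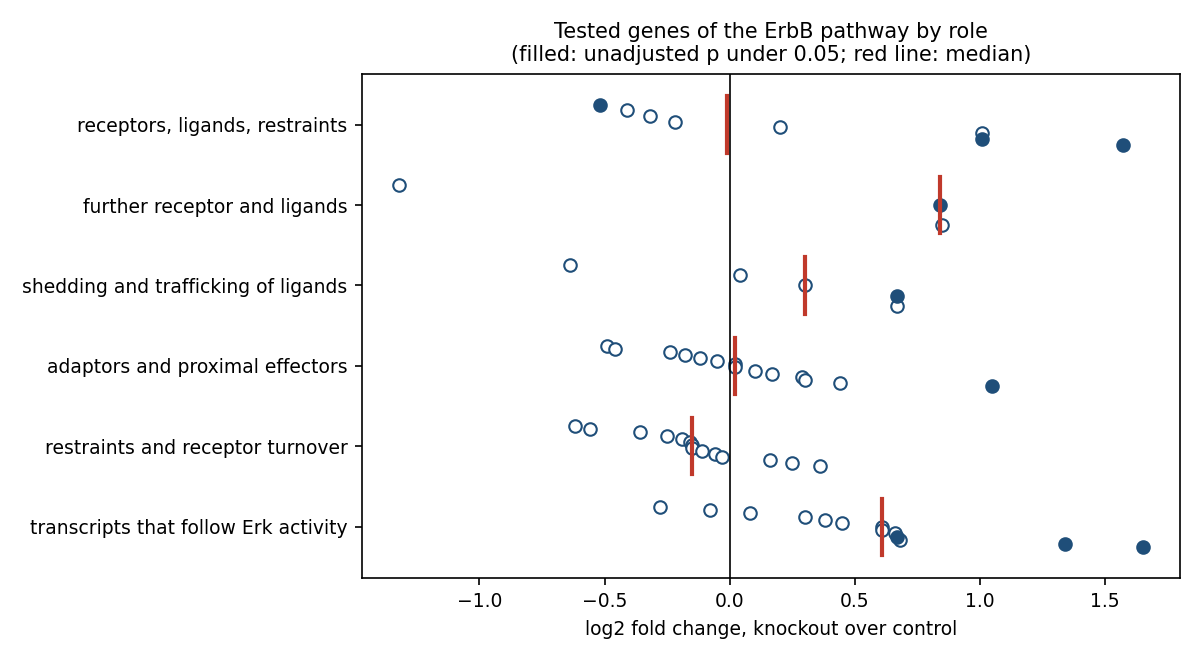
Log2 fold change of knockouts over controls (horizontal axis) for each tested gene of the ErbB members and of 5 pathway groups (rows, with points spread vertically for clarity), filled where the unadjusted p was under 0.05 and with the group's median as a red line. The Erk-following transcripts have a median of 0.61 with 11 of 13 points above 0 (0.11 and 8 of 13 within set 2), and the restraints a median of -0.15 with 11 of 14 below 0 (0.04 and 6 of 14 without knockout 3).

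For each tested member the most similar other gene was sought among the 56 tested genes of the members and the list, by Pearson's r of log2(normalized CPM + 1) over the 8 libraries. These values describe libraries that share genotype, depth and knockout 3, and have no test. Errfi1 was most like Spred1 (r = 0.83, or 0.88 without knockout 3), and Areg most like Errfi1 (0.79 and 0.74). Btc was most like Spred2 (0.92 with and without knockout 3), a relative of Spred1. Egfr was most like Spry2 (0.92 and 0.94), an Erk feedback inhibitor, and Erbb2 most like Rnf41 (0.87 and 0.92), a ubiquitin ligase. Lrig1 went with Etv4 (0.76 and 0.89). For Erbb3 with Socs4 (0.86 and 0.52) and Hbegf with Spry1 (0.86 and 0.70) the value was lower without knockout 3.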

How the data were processed

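Alignment by the authors used GSNAP and the mm10 build, and featureCounts 1.6.3 gave, for each gene of Ensembl release 92, the reads that mapped uniquely. The deposited values are raw counts, and the exon length of each gene is deposited beside them. The strand setting is not given in the sources used here, so overlapping genes are uncertain. The 92 spike-in rows were left out, and 53620 of 53801 genes were matched to symbols by Ensembl identifier.

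From the counts, TMM factors and robust quasi-likelihood fits were computed with edgeR 4.0.16 in R 4.3.3 for the 13439 genes that passed filterByExpr (minimum count 10, minimum total 15), with Benjamini-Hochberg adjustment. SE is the log2 fold change divided by the square root of F, and 95% intervals use the t quantile at the degrees of freedom of the fit. DESeq2 1.42.0, other scalings and filters, the library set, a Y-linked covariate and each library left out were alternatives, and the covariate, the fits within sets and the unfiltered fits without a library were chosen after seeing the data. The fits were tested on simulated data. The genes named are the 10 members, the other receptor and ligands, and of the other groups those at an unadjusted p under 0.05 and the one with the highest mean level over the 8 libraries. The members and lists were chosen with earlier results of these data known. Depth is 13037832 to 14380240 counts per library, and the common biological coefficient of variation was 0.376.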

Additional observations from a re-analysis of the deposited data

Results flagged for a closer look

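Within each genotype the highest and lowest of the 4 libraries were compared with the others for the 25 genes that the naming rule gives, which are the 10 members, the other receptor and ligands and the rule's pathway genes, in 50 groups, of which chance alone marks about 1 in 20, a rate that does not hold for groups with 0 counts in most libraries. There were 9 such values, 4 of them in knockout 3.

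In knockout 3, Egf had 21.3 normalized CPM against 3.33 to 4.91 in the other knockouts, Gab1 12.5 against 4.73 to 5.70, Egr1 264 against 113 to 126, and Pik3r1, on the low side, 12.6 against 20.7 to 22.0. Knockout 3 also had the fewest genes with a count, 19662, the smallest TMM factor, 0.632, and 1037 counts on Xist together with 148 on 4 Y-linked genes. Whether these features bear on the 4 values was not tested. Without knockout 3 the log2 fold change of Egf was -0.18 in place of 0.85 and that of Gab1 0.63 in place of 1.05.

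Among the members, Ereg was marked in both genotypes, at 0.564 normalized CPM (9 counts) in control 1 against at most 0.0793 in the other controls, and at 0.425 (7 counts) in knockout 4 against 0 in the other knockouts. Etv5 had 2.96 normalized CPM in control 3 against 0.789 to 0.940 in the other controls. Nrg2 was marked on 1 count in control 3 (0.0897 normalized CPM) and 3 counts in knockout 1 (0.178), with 0 in the others of each genotype. For Nrg2 and for Ereg in knockout 4, the zeros of the other 3 libraries fix the mark.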

How the results depend on the processing

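No paired analysis was possible because replicate numbers are names given here, the labels name no litters, although the study used littermates, and the genotypes share only 1 animal number. The number of members past both thresholds, 0, was 1 with DESeq2 (Errfi1, log2 fold change 1.02) and 2 without a filter (Errfi1 1.01, Btc 1.58), and 0 under the other 14 alternatives, each library left out in turn included. Unfiltered and without knockout 3 or 4, Errfi1 was at 0.97 and 1.12 and Btc at 1.84 and 1.79. The number of all genes past the thresholds, 25, was 138 with DESeq2, 290 without a filter, 10 with the Y-linked covariate and 13 with at least 10 counts in every library. It was 10 to 152 with each library left out, and 38 at a false discovery rate of 10% with no limit on the fold change. The 6 pathway genes higher at an unadjusted p under 0.05 became 2 with the Y-linked covariate, 9 without a filter and 3 to 7 with each library left out, and the 0 lower ones 1 without a filter (Pik3r1) and 0 to 1 with each library left out. The pathway median, 0.08, was -0.07 to 0.11 with each library left out, and lowest without knockout 1. The sign turned for Btc within set 2 (-0.08) and for Hbegf with the Y-linked covariate (0.01) and without knockout 3 (0.08), where leaving out each library in turn gave Hbegf -0.48 to 0.08. The other 6 tested members kept their sign under all alternatives. The causes were not tested. The readings of Ereg and Nrg1 rest on no more than 9 counts in a library.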
